A study of Saccharomyces cerevisiae with 18 samples.

Results

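The vacuolar proton ATPase (V-ATPase) of budding yeast, Saccharomyces cerevisiae, was followed at the transcript level through 10 of its subunit genes. They were taken by name from a deposited table of 6606 open reading frames (ORFs): VMA1 (YDL185W), VMA2 (YBR127C), VMA3 (YEL027W), VMA4 (YOR332W), VMA5 (YKL080W), VMA6 (YLR447C), VMA7 (YGR020C), VMA8 (YEL051W), VMA10 (YHR039C-A) and VMA13 (YPR036W). All 10 were present and all 10 passed the filter on low counts, as did 2856 ORFs in total. The set is defined by gene names and not by a threshold on any value, and it was chosen with earlier results of these data known. Poly-A RNA had been sequenced from 4 heterozygous diploid strains, each named for a chromosome I ORF that is heterozygous in it, and from a wild-type. The strains are called here SEO1 het (yal067c), GIP4 het (yal031c), FUN26 het (yal022c) and FUN14 het (yal008w), with 3 libraries each, and the wild-type had 6. What stands in place of the named ORF is not described in the labels. All cells grew in YPD, a rich glucose medium, at 30 °C in log phase between optical densities of 0.2 and 1.0, without the drug G418. All labels name BY4741, which is haploid and of mating type a, as strain background, while the series record calls all 5 strains diploid and the wild-type columns of the table carry the name BY4743, that of a diploid strain. These statements on the wild-type conflict.

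The V-ATPase is a rotary proton pump. Its soluble V1 sector, made of subunits A to H, hydrolyses ATP on the cytosolic face of the vacuole, and its membrane sector V0 carries protons into the lumen. Yeast use it to acidify the vacuole, Golgi and endosomes, and the gradient drives uptake of calcium, amino acids and metal ions into the vacuole. A cell without a working V-ATPase survives in acidic medium but not at neutral pH or in high calcium, which is called the Vma- phenotype. V1 and V0 come apart and rejoin as glucose falls and returns.

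The table counts reads over the last 200 bases of each ORF, so every gene is read through a window of the same length. How evenly reads are recovered from the windows of different genes was not tested. Ranks and ratios between genes therefore compare counts in these windows. The windows of VMA1 and VMA2 are shown because these genes lay at the 2 ends of the range of levels, although their products A and B alternate in equal number in the catalytic ring of V1. Both are the coding strand 5′ to 3′ from the R64 reference, with the stop codon in capitals. The VMA1 window is chrIV:129803-130002 on the plus strand, and the VMA2 window is chrII:491269-491468 on the minus strand.
VMA1: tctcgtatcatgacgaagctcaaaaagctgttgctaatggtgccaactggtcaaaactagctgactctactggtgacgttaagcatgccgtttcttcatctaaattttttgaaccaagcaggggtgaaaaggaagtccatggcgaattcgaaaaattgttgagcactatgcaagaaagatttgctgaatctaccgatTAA
VMA2: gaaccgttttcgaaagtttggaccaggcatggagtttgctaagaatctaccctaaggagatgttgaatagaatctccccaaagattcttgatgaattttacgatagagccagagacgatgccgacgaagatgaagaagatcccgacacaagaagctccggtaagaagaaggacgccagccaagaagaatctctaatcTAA

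The windows of VMA3 and VMA11 are shown because they encode related proteolipids, c and c′ of the V0 rotor, which could share reads. They are chrV:101052-101251 on the plus strand and chrXVI:104946-105145 on the minus strand of R64. Capitals mark the bases that, in an alignment of the windows, differ from the other window or have no partner in it.
VMA3: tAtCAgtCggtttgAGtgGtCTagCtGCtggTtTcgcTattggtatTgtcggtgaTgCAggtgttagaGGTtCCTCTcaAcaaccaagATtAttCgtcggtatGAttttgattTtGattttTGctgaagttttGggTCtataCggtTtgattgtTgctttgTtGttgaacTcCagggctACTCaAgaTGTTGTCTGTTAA
VMA11: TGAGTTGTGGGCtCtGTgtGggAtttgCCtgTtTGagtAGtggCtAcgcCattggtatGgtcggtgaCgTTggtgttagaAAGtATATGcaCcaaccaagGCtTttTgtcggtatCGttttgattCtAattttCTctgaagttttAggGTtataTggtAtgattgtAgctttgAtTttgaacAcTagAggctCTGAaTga
Over 186 aligned bases 134 were identical, which is 72.0%, and the longest identical run was 10 bases. Neither sequence held a run of 30 bases that occurs elsewhere in R64, and the same was true of the windows of all 10 members, each of which lay inside a coding exon with no other ORF of the table across it. VMA10 is the only member with an intron, outside its window. The GC content of the members' windows ran from 34% (VMA5) to 48% (VMA13), around a median of 40% for all R64 ORFs. The genome build behind the table is not given in the sources used here: ORF lengths were those of R64 for all 10 members, but start and end were the same only for VMA3 and VMA8.

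Library totals were shallow. They ran from 69626.5 to 132618 counts in SEO1 het, 66145 to 126675.5 in GIP4 het, 52293.5 to 111600.5 in FUN26 het, 72922 to 99458.5 in FUN14 het and 66764.5 to 116519.5 in wild-type. Counts of wild-type replicates 1 and 2 agreed within sampling noise and were averaged into 1 library, which left 17 libraries and n = 5 for wild-type. No value in the table exceeded 201, so counts near that ceiling are compressed, and of the members VMA2 (up to 163) and VMA4 (up to 181) came closest. VMA13, VMA6 and VMA7 reached 147, 138 and 136 counts. The ceiling correction described below also raised those values, for VMA13 in GIP4 het replicate 1 from 1305 to 1779 CPM. The median counts of the named ORFs were 0 for SEO1, 1 for GIP4, 9 for FUN26 and 13 for FUN14 in their own strains, against 0.5, 4, 19.5 and 27 in wild-type, and SEO1 was at 0 counts in all heterozygous libraries, so its counts check nothing. Summed over 6 a-specific genes, which a haploid a cell transcribes and an a/alpha diploid represses, the level was 16.0 to 174 CPM in the 12 heterozygous libraries, against 955 to 1617 CPM in the 5 wild-type libraries, and for 6 haploid-specific genes it was 17.4 to 174 CPM, against 817 to 1461 CPM. For 4 alpha-specific genes it was 0 to 118 CPM, against 33.3 to 174 CPM, and none of these 16 markers was at 0 throughout either class. In every comparison of a heterozygote with wild-type, the heterozygous ORF and this difference in cell class cannot be told apart. In a bulk culture a smaller share of expressing cells and less RNA per cell cannot be told apart either. Contrasts among the heterozygotes leave out the wild-type means, but the count filter, the scaling factors and the estimate of spread behind them come from all 5 groups.

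The 10 subunit transcripts spanned a wide range of levels, with VMA2 most often at the top and VMA1 always at the bottom. Levels are given as CPM, counts scaled to a common library total with factors from the trimmed mean of M-values (TMM), as mean ± SD over the 17 libraries. VMA2 was highest at 1734 ± 355 CPM, above 99.2% of all tested ORFs. VMA7, VMA13, VMA4 and VMA6 followed at 1317 ± 247, 1141 ± 267, 1091 ± 357 and 981 ± 197 CPM. VMA5, VMA3, VMA10 and VMA8 stood at 699 ± 132, 614 ± 127, 434 ± 139 and 347 ± 99.1 CPM. VMA1 was lowest at 87.5 ± 33.0 CPM, above 11.2% of tested ORFs and with only 3 to 15 counts per library.

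VMA1 was the lowest of the 10 in 17 of 17 libraries. VMA2 was the highest in 13, and VMA4 was the highest in the other 4. VMA2 exceeded VMA7 in 17 of 17 libraries, and VMA8 exceeded VMA1 in 17 of 17. In the middle, VMA7 exceeded VMA13 in 11 libraries, VMA13 exceeded VMA4 in 9 and VMA4 exceeded VMA6 in 8, so these neighbours did not separate beyond the spread between libraries. VMA6 exceeded VMA5 in 15 libraries, VMA5 exceeded VMA3 in 11, VMA3 exceeded VMA10 in 14 and VMA10 exceeded VMA8 in 13. The ratio of VMA2 to VMA1 had a median of 21.8 and a range of 10.9 to 47.0. With counts corrected for the ceiling, by taking each window as 202 positions that can each be occupied once, the ratio was 33.1 with a range of 17.9 to 80.0. That correction also put VMA4 ahead of VMA13 in mean level, and it changed no other rank.

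Summed over the 10 genes, V-ATPase transcripts made up 8304 ± 1254 CPM in SEO1 het, 8549 ± 604 CPM in GIP4 het, 7799 ± 265 CPM in FUN26 het and 8814 ± 511 CPM in FUN14 het (SD, n = 3 each), against 8641 ± 996 CPM in wild-type (SD, n = 5). The 3 FUN26 libraries, at 7526 to 8056 CPM, lay inside the wild-type range of 7567 to 9948 CPM except for 1 library below it. Each strain overlapped wild-type, and all 3 FUN26 libraries lay below all 3 FUN14 libraries, at 8446 to 9397 CPM. The sum was not tested.

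The levels in each library are given by role, beginning with the catalytic ring. VMA1 encodes subunit A, which hydrolyses ATP, and its primary product also carries a homing endonuclease that is spliced out of the protein. It stood at 47.4, 95.9 and 114 CPM in SEO1 het, at 44.4, 46.5 and 52.2 CPM in GIP4 het, at 69.0, 105 and 87.0 CPM in FUN26 het, and at 74.3, 119 and 104 CPM in FUN14 het, against 55.1, 163, 122, 89.6 and 98.5 CPM in wild-type. All 3 GIP4 libraries lay below all 5 wild-type libraries, and 1 SEO1 het library lay in the GIP4 het range, while the other strains overlapped wild-type. How many of all tested ORFs separate groups in this way was not counted, for this gene or for those below. VMA2 encodes subunit B, the regulatory partner of A in the ring. Its levels were 1541, 2094 and 1238 CPM in SEO1 het, 1376, 1644 and 2453 CPM in GIP4 het, 1582, 1422 and 1935 CPM in FUN26 het, and 1646, 2221 and 1928 CPM in FUN14 het, against 1386, 1968, 1766, 1244 and 2036 CPM in wild-type. Every strain overlapped wild-type, and within each strain the shallowest or next shallowest library was the highest.

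The central stalk that turns inside the ring is built from subunits D and F. VMA8, for subunit D, gave 379, 416 and 353 CPM in SEO1 het, 364, 221 and 148 CPM in GIP4 het, 355, 286 and 185 CPM in FUN26 het, and 441, 499 and 421 CPM in FUN14 het, against 283, 498, 333, 378 and 345 CPM in wild-type. The FUN14 libraries were the 3 highest of the 12 heterozygous libraries, and they overlapped wild-type through wild-type replicate 3. VMA7, for subunit F, gave 1132, 1559 and 1033 CPM in SEO1 het, 1043, 1289.7 and 1557 CPM in GIP4 het, 932, 1227 and 1359 CPM in FUN26 het, and 1380.2, 1498 and 1288 CPM in FUN14 het, against 1135.5, 1789, 1339, 1104 and 1732 CPM in wild-type. All groups overlapped for VMA7.

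The peripheral stalks that hold the ring still are pairs of subunits E and G. VMA4, for subunit E, had 1659.7, 807 and 782 CPM in SEO1 het, 1607, 1580.1 and 800.3 CPM in GIP4 het, 1055, 1045 and 805 CPM in FUN26 het, and 833, 789.9 and 815 CPM in FUN14 het, against 1474, 711, 905, 1274 and 1609 CPM in wild-type. High values from 1274 to 1660 CPM occurred in 6 libraries drawn from the SEO1, GIP4 and wild-type groups, and the other 11 lay between 711 and 1055 CPM. The FUN14 libraries were the least spread, with an SD of 21.9 CPM against 379 CPM in wild-type. VMA10, for subunit G, had 415, 624 and 379.8 CPM in SEO1 het, 293, 383 and 539 CPM in GIP4 het, 453, 248 and 304 CPM in FUN26 het, and 350.4, 715 and 479 CPM in FUN14 het, against 356, 669.8, 344, 299 and 525 CPM in wild-type. Every strain overlapped wild-type for VMA10, the partner of VMA4 in the stalk.

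Subunits C and H take part in the control of assembly: C leaves both sectors when they separate, and H silences free V1. VMA5, for subunit C, was at 599, 823 and 513 CPM in SEO1 het, 617, 761 and 783 CPM in GIP4 het, 473, 673 and 881 CPM in FUN26 het, and 823, 812 and 654 CPM in FUN14 het, against 572, 890.3, 583, 622 and 813 CPM in wild-type. All groups overlapped for VMA5. VMA13, for subunit H, was at 1280.4, 1231 and 820.4 CPM in SEO1 het, 1305, 1295 and 1383 CPM in GIP4 het, 853, 1227 and 1207 CPM in FUN26 het, and 1109.5, 954 and 958 CPM in FUN14 het, against 1349, 441, 1249.8, 1159 and 1576 CPM in wild-type. Wild-type replicate 3 had the lowest VMA13 level of all 17 libraries, so wild-type spanned every heterozygous library.

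The membrane sector is represented by VMA3, for the proteolipid c of the rotor, and by VMA6, for subunit d, which caps the rotor. VMA3 reached 640.2, 735 and 676 CPM in SEO1 het, 479, 558 and 331 CPM in GIP4 het, 719.6, 668 and 489 CPM in FUN26 het, and 701, 581 and 828 CPM in FUN14 het, against 634, 768, 633, 537 and 459.6 CPM in wild-type. The GIP4 libraries were low and yet overlapped both FUN26 het and wild-type. VMA6 reached 818, 1055 and 1048 CPM in SEO1 het, 808, 790.1 and 1096 CPM in GIP4 het, 1035, 912 and 805 CPM in FUN26 het, and 1088, 1207 and 1126 CPM in FUN14 het, against 767, 1503, 999.8, 861 and 755 CPM in wild-type. The library that was lowest in VMA13, wild-type replicate 3, was the highest in VMA6, and without it the FUN14 libraries would lie above every wild-type library.

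**Figure D1:**
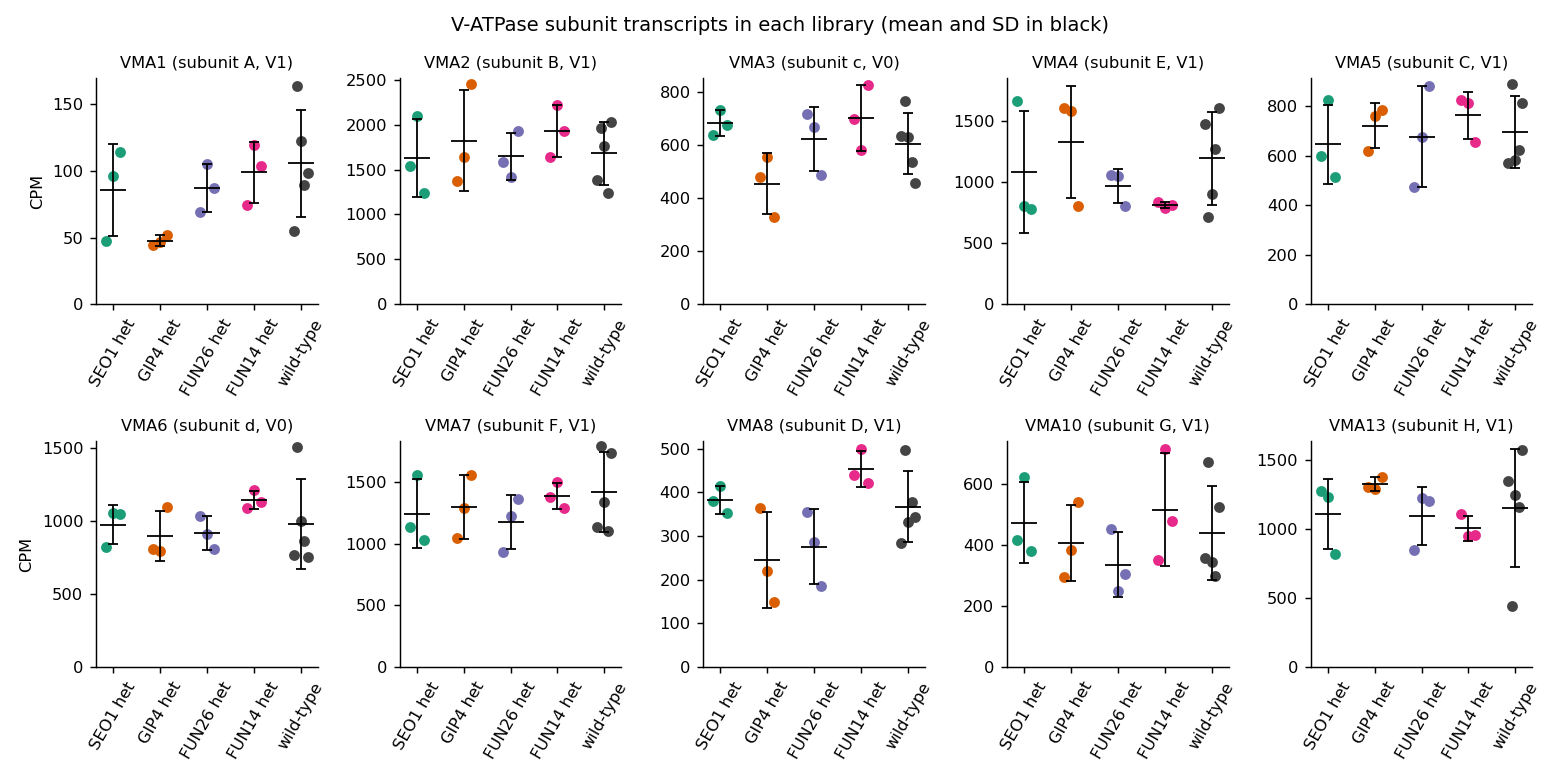
Level of each of the 10 subunit transcripts in CPM (vertical axis, from 0) in the 12 heterozygous libraries by strain and in the 5 wild-type libraries, with the group mean and SD in black. VMA1 lies between 44.4 and 163 CPM and VMA2 between 1238 and 2453 CPM, and no gene separates all heterozygotes from wild-type.

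The first comparison asked whether each heterozygous strain differed from wild-type in the level of any subunit transcript, and none did at the threshold used. A gene counted as changed when edgeR's quasi-likelihood test gave a Benjamini-Hochberg adjusted p under 0.05 over all 2856 tested ORFs. In SEO1 het 0 of 10 members were called against 0.14% of tested ORFs, and in GIP4 het 0 of 10 against 0.28%. For FUN26 het it was 0 of 10 against 0.21%, for FUN14 het 0 of 10 against 0.315%, and for the mean of the 4 strains 0 of 10 against 0.385%. At these background shares a count of 0 among 10 genes does not set the V-ATPase apart from tested ORFs in general. The ORFs called numbered 4, 8, 6, 9 and 11. Of these, 2, 3, 2, 2 and 3 were listed a-specific genes, and 2, 3, 3, 2 and 4 were listed haploid-specific genes. All of these listed genes were lower than in wild-type, and MFA2, STE2, FUS3 and STE18 were among them each time. At an unadjusted p under 0.05 by edgeR the members counted 0, 1, 0, 0 and 0 in these 5 comparisons, beside 112, 138, 124, 477 and 185 of all tested ORFs, and DESeq2 called none of the members either. Deviations of same-numbered libraries from group means were positively correlated between GIP4 het and wild-type and between FUN26 het and wild-type. Differently numbered libraries were not compared. With the replicate number as a block, and wild-type replicates 1 and 2 kept apart, the comparisons of GIP4 het and FUN26 het called 20 and 22 ORFs. None of these was a member. Without the block they called 11 and 7 with those replicates kept apart, and 8 and 6 with them averaged. Replicate numbers 4 to 6 occur in wild-type alone, so with the block these libraries carry no weight in the contrasts. The runs thus differ in the wild-type libraries used as well as in the block.

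With the 4 strains averaged and wild-type subtracted, the log2 fold changes of the members had a median of -0.03, beside -0.05 for all tested ORFs. VMA1 lay farthest from 0, at -0.44 ± 0.31 (SE), with means of 79.9 ± 27.9 CPM in the heterozygotes and 106 ± 40.2 CPM in wild-type (SD, n = 12 and 5), and it was at -0.235 without wild-type replicate 3. VMA4 was at -0.21 ± 0.21, VMA7 at -0.16 ± 0.16 and VMA8 at -0.13 ± 0.22. The other 6 lay between -0.04 and 0.06: VMA13 at -0.04 ± 0.20, VMA10 at -0.03 ± 0.25, VMA3, VMA5 and VMA6 each at 0.01 with SEs of 0.17, 0.18 and 0.17, and VMA2 at 0.06 ± 0.17. The smallest adjusted p of the 10 by edgeR's quasi-likelihood test was 0.747.

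By strain, the members' median log2 fold change against wild-type was -0.06 in SEO1 het, -0.12 in GIP4 het, -0.17 in FUN26 het and 0.18 in FUN14 het, beside 0.01, 0.03, -0.05 and -0.03 for all tested ORFs. These comparisons share the wild-type libraries. Positive differences were seen for 4, 4, 1 and 6 of the 10 members. The 1 member with an unadjusted p under 0.05 was VMA1 in GIP4 het, at a mean of 47.7 ± 4.0 CPM in that strain and 106 ± 40.2 CPM in wild-type (SD, n = 3 and 5). Its log2 fold change was -1.13 ± 0.46 (SE), with a 95% interval of -2.09 to -0.16, and 3 of 3 GIP4 libraries lay below every wild-type library. It did not pass, at an adjusted p of 0.920 by edgeR's quasi-likelihood test over all tested ORFs. It rests on 3 to 5 counts in each GIP4 library, and the share of all tested ORFs with such a separation was not counted.

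**Figure D2:**
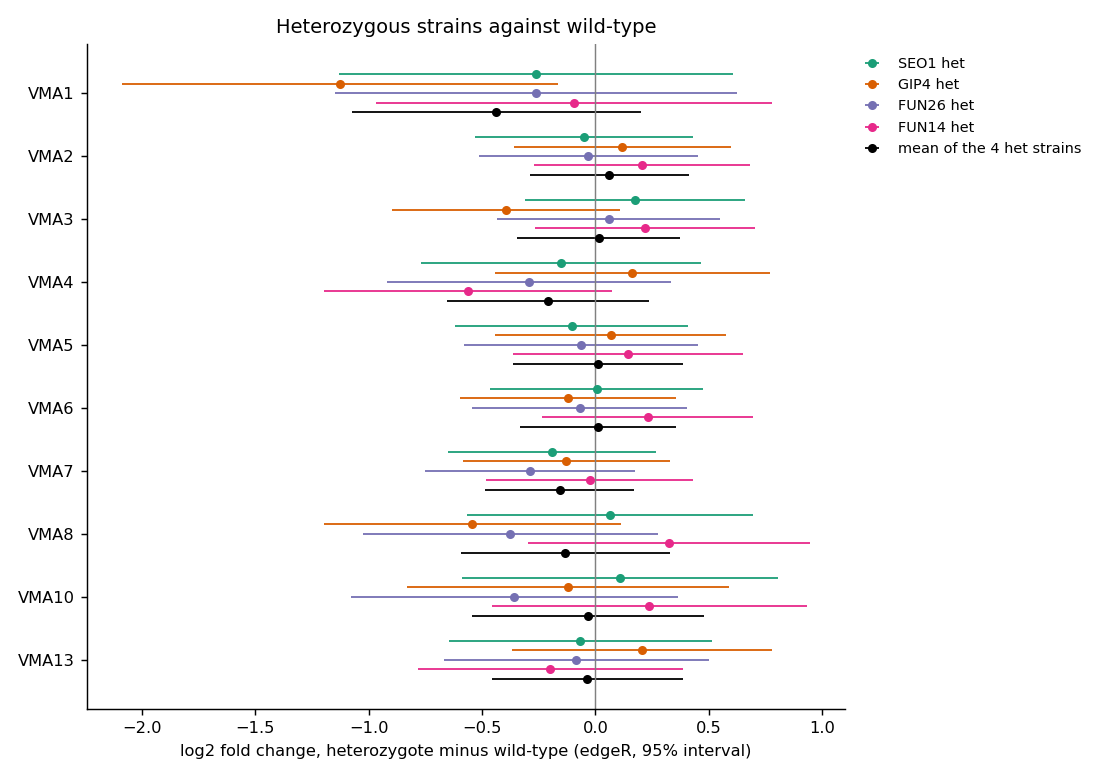
Log2 fold change of each subunit transcript, heterozygote minus wild-type, from edgeR with its 95% interval, for the 4 strains in colour and their mean in black. Of these intervals only that of VMA1 in GIP4 het, from -2.09 to -0.16, excludes 0.

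The second comparison set each heterozygous strain against the other 3, which leaves the wild-type out of the contrast though not out of the fit. Again 0 of 10 members were called in each of these 4 comparisons, and 0% of all tested ORFs were. The F test for any difference among the 4 strains called 0 of 10 members and 0% of tested ORFs. The count of all tested ORFs at an unadjusted p under 0.05 by edgeR was 59 for SEO1 het, 523 for GIP4 het, 39 for FUN26 het and 383 for FUN14 het, and 287 for the F test. DESeq2 called 0, 0, 0, 15 and 2 ORFs, none of them a member. The members' median log2 differences were 0.04, -0.04, -0.11 and 0.23, beside 0.06, -0.01, 0.01 and 0.01 for all tested ORFs, with 5, 5, 2 and 8 of 10 positive.

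Only 3 member values in this second set had an unadjusted p under 0.05, and all failed the adjustment. VMA1 in GIP4 het minus the other heterozygotes had a log2 difference of -0.92 ± 0.43 (SE, adjusted p = 0.271 by edgeR's quasi-likelihood test). VMA3 there had a difference of -0.54 ± 0.22 (adjusted p = 0.229 by the same edgeR test), with means of 456 ± 115 CPM in that strain and 684 ± 48.1, 626 ± 121 and 703 ± 123 CPM in SEO1 het, FUN26 het and FUN14 het (SD, n = 3 each). VMA8 in FUN14 het had a difference of 0.61 ± 0.27 (adjusted p = 0.333 by the same edgeR test), with a mean of 453 ± 40.9 CPM there and 383 ± 31.4, 244 ± 110 and 275 ± 85.6 CPM in SEO1 het, GIP4 het and FUN26 het. All 3 FUN14 libraries exceeded all 9 of the other heterozygous libraries in VMA8, and the GIP4 libraries overlapped the others in VMA1 and VMA3. The share of all tested ORFs that set a strain apart in this way was not counted.

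The intervals say what size of difference these libraries could have missed. Over the 10 members and 9 contrasts, 72 of 90 intervals lay wholly within a log2 difference of 1 in either direction. The margins on either side of the estimate were narrowest for VMA7, from 0.33 to 0.46, and for VMA2 and VMA6, from 0.34 to 0.48. They were widest for VMA1, from 0.64 to 0.96, and for VMA10, from 0.51 to 0.72. A change of a strain in VMA1 smaller than about its margin was not detectable at this depth, and larger ones could be missed too. The intervals are not adjusted over all tested ORFs, while the calls are. VMA1 in GIP4 het minus wild-type, at -1.13 with an interval of -2.09 to -0.16, was not called (adjusted p = 0.920 by edgeR's quasi-likelihood test). The smallest adjusted p of all 90 was 0.229.

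A further 6 V-ATPase genes were listed beside the members and, with 1 exception, were far lower than every member but VMA1. VMA1 itself, at 87.5 ± 33.0 CPM, lay among them. VPH1 and STV1, which encode the vacuolar and the Golgi forms of subunit a, averaged 131 ± 64.2 and 112 ± 47.9 CPM over the 17 libraries. VMA11 (c′), VMA9 (e) and VMA16 (c″) averaged 83.0 ± 44.9, 83.5 ± 37.9 and 70.7 ± 29.5 CPM, and VMA16 did not pass the count filter. The window of VMA9 shares 149 bases with YCL007C, so the counts of VMA9 are uncertain. VOA1, whose product helps to assemble V0 in the endoplasmic reticulum, averaged 1234 ± 288 CPM, in the range of VMA7. None of the 5 tested genes was called in any comparison by edgeR, and their median log2 fold change, 4-strain mean minus wild-type, was -0.10. VPH1 had a log2 fold change of 0.31 ± 0.35, STV1 of -0.19 ± 0.36, VMA11 of -0.10 ± 0.44, VMA9 of -0.31 ± 0.35 and VOA1 of 0.04 ± 0.19 (SE).

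No listed gene around the pump was called in the tests either, beside 0% to 0.385% of all tested ORFs. At such shares this does not set the lists apart from tested ORFs in general. Of 9 genes listed as V-ATPase assembly factors, 4 passed the count filter and 0 were called in any of the 10 comparisons. The list holds, among others, chaperones that build V0 and genes of the RAVE complex, which rejoins the sectors. RAV1 and RAV2 of that complex did not pass the filter, so neither was among the 4 tested. Of 15 vacuolar transporters that run on the proton gradient 7 were tested and 0 were called, and of 8 vacuolar hydrolases, which work in the acid lumen, 6 were tested and 0 were called. At an unadjusted p under 0.05 by edgeR against wild-type, the hydrolases counted 0, 0, 0, 3 and 1 of 6. The order is SEO1 het, GIP4 het, FUN26 het, FUN14 het and the 4-strain mean, where the members counted 0, 1, 0, 0 and 0 of 10. PMA1, the plasma membrane proton pump, averaged 699 ± 145 CPM in the heterozygotes and 725 ± 177 CPM in wild-type (SD, n = 12 and 5). The 13 listed subunits of the mitochondrial ATP synthase, a related rotary enzyme that runs in reverse, were all tested and 0 were called. The list does not cover the whole enzyme. Against the other heterozygotes their median log2 difference was -0.08 in SEO1 het, -0.54 in GIP4 het, 0.12 in FUN26 het and 0.24 in FUN14 het, with 5, 2, 9 and 11 of 13 positive. The V-ATPase medians were 0.04, -0.04, -0.11 and 0.23 in the same strains, and the difference between the enzymes was not tested.

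Co-variation was examined between libraries of the same group. Log2 CPM values, with a prior count of 2, had their group mean subtracted, and Pearson's r was taken over the 17 libraries for each of the 45 pairs of members. These points share the library, its depth and its composition. The median r was 0.09, from -0.034 (without wild-type replicate 3) to 0.135 with each library left out in turn. The values of single pairs ran from -0.82 to 0.90, and 24 of 45 pairs were positive. The share of pairs beyond 0.5 in either direction was 31.1%, beside 23.8% of all pairs of tested ORFs, whose median r was -0.01. The listed ATP synthase subunits had a median r of 0.24 over 78 pairs. Permutation tests drew 100000 orders of the libraries within groups, two-sided, with adjustment over the 45 pairs by Benjamini-Hochberg, and 5 pairs had an adjusted p under 0.05.

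The closest pair was VMA5 and VMA7, subunits C and F, with r = 0.90 (permutation p = 0.00014, adjusted p = 0.0063) and Spearman's rho = 0.85 (permutation p = 0.00085, adjusted p = 0.024). Its r was 0.90 without the 2 libraries farthest from the median of VMA5, 0.91 in the 12 heterozygous libraries alone and 0.86 with the ceiling correction. Of all pairs of tested ORFs, 0.27% reached such an r. It passed in 17 of 17 runs that left out a library. VMA2 and VMA7 had r = 0.85 (permutation p = 0.00094, adjusted p = 0.0211) and rho = 0.83 (permutation p = 0.0016, adjusted p = 0.024), with 0.81 without the 2 farthest libraries but 0.61 with the ceiling correction. VMA2 and VMA10 had r = 0.79 (permutation p = 0.00216, adjusted p = 0.0324) and rho = 0.74 (permutation p = 0.00289, adjusted p = 0.0325), with 0.74 without the 2 farthest libraries. The 2 pairs with VMA2 each passed in 10 of 17 runs that left out a library, and 0.791% and 2.00% of all pairs of ORFs reached such values.

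Opposed pairs centred on VMA4. VMA4 and VMA6, subunits E and d, had r = -0.81 (permutation p = 0.00466, adjusted p = 0.0419) and rho = -0.81 (permutation p = 0.00718, adjusted p = 0.0646), with -0.71 without the 2 farthest libraries and -0.72 in the heterozygous libraries alone. VMA1 rested on only 3 to 15 counts per library. VMA1 and VMA4 had r = -0.74 (permutation p = 0.00395, adjusted p = 0.0419) and rho = -0.78 (permutation p = 0.00159, adjusted p = 0.024), with -0.63 without the 2 farthest libraries. These pairs passed in 6 and 7 of 17 runs that left out a library, with adjusted p values up to 0.157 and 0.162 in the run without SEO1 het replicate 1. Because VMA4 levels left a gap between 1055 and 1274 CPM, r was also taken on each side of it, with no subtraction of group means. It was -0.51 and -0.52 in the 6 high libraries and -0.50 and -0.30 in the 11 others, for VMA6 and VMA1 in turn. VMA6 and VMA13, subunits d and H, had r = -0.82 (permutation p = 0.00897, adjusted p = 0.0579) and rho = -0.65 (permutation p = 0.0131, adjusted p = 0.0886). That value rested on wild-type replicate 3, without which it was -0.47 at an adjusted p of 0.371.

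**Figure D3:**
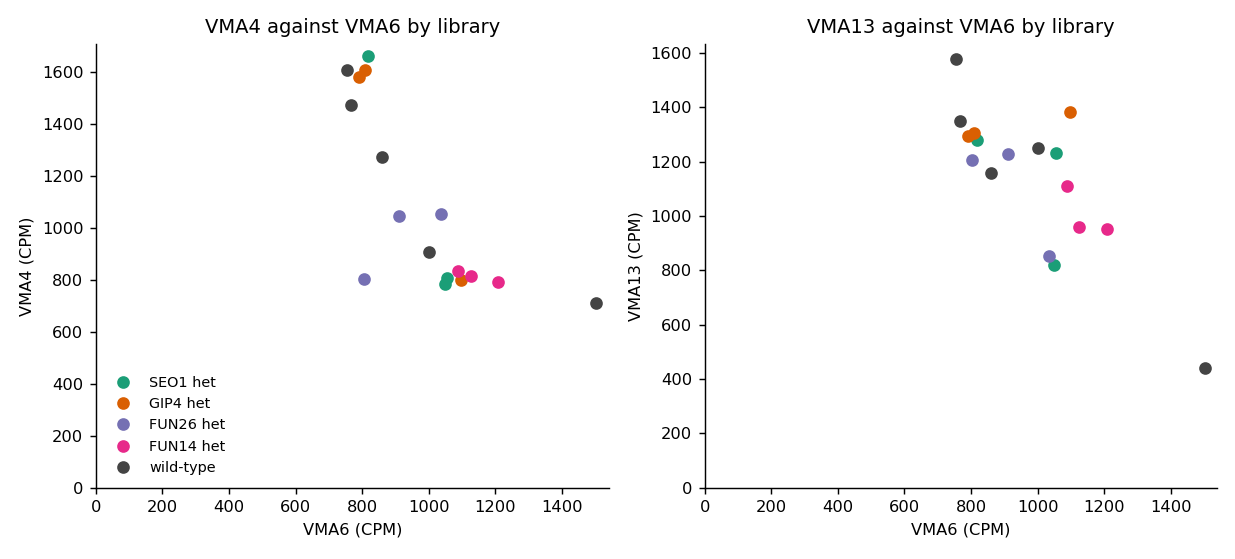
VMA4 (left) and VMA13 (right) against VMA6, all in CPM, with 1 point per library coloured by strain. VMA4 is at 1274 CPM or above in 6 libraries whose VMA6 levels are 755 to 861 CPM, and wild-type replicate 3 stands alone at 1503 CPM of VMA6 with 441 CPM of VMA13.

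Library depth moved with part of this pattern. After subtraction of group means, log2 CPM of VMA2 had r = -0.91 with the log2 total count of the library (rho = -0.91), and its permutation p of 1e-05 is the smallest that the permutations can give. The adjusted p over all 2856 ORFs was 0.00178. VMA7 had r = -0.86 (rho = -0.78, permutation p = 0.00075, adjusted p = 0.0173), VMA5 had r = -0.80 (rho = -0.76, permutation p = 0.00343, adjusted p = 0.0437) and VMA10 had r = -0.65 (rho = -0.65, permutation p = 0.0139, adjusted p = 0.0973). Without the 2 libraries of most extreme depth these were -0.93, -0.86, -0.78 and -0.76, and with the ceiling correction -0.67, -0.68, -0.78 and -0.69. The members of the 3 positive pairs, VMA2, VMA5, VMA7 and VMA10, were thus the ones with the most negative r with depth. VMA3, VMA4, VMA8 and VMA13 had r of 0.40, 0.45, 0.39 and 0.05 with depth, and none passed. The part of depth in the co-variation was not tested.

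The relation with depth was common among strongly expressed genes. Over all tested ORFs the median r with depth was 0.10, and 258 of 2856 (9.03%) passed the adjusted threshold. Among the 284 ORFs at or above the median level of the members, the median r was -0.52 and 84 passed, of which 83 were negative. VMA2 at 1238 CPM in the deepest library, with 132618 counts, and 2453 CPM in a library of 66145 counts marks the range. The largest axis of variation between libraries, the first principal component of log2 CPM over all tested ORFs, held 44.8% of the variance and had r = -0.91 with VMA4, 0.82 with VMA6, 0.73 with VMA1 and -0.66 with VMA13. Of all tested ORFs, 49.8% had an r beyond 0.5 with it in either direction. The opposed subunits thus lay on an axis that many other genes also followed.

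**Figure D4:**
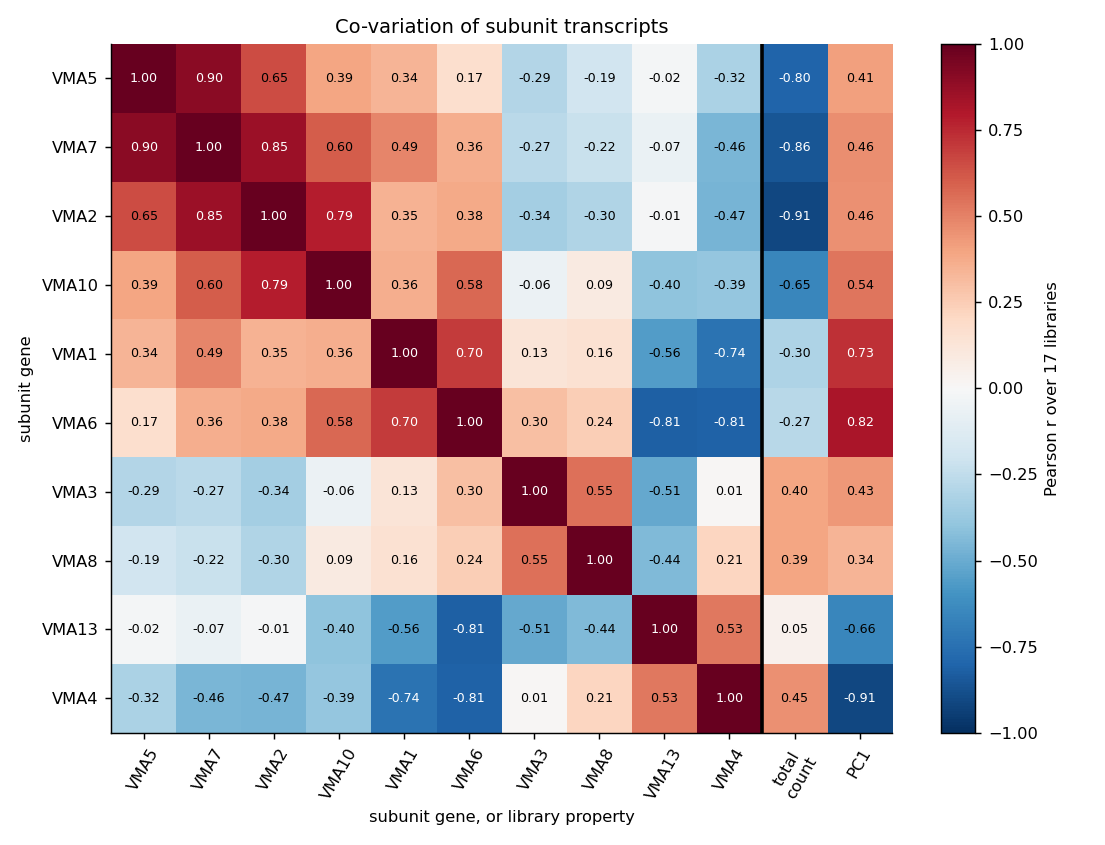
Pearson's r over 17 libraries between the 10 subunit transcripts, after subtraction of group means from log2 CPM, with 2 further columns for the log2 total count and, without that subtraction, for the first principal component of all tested ORFs. VMA5, VMA7, VMA2 and VMA10 form a positive block that is negative with total count, and VMA4 opposes VMA1 and VMA6.

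**Figure D5:**
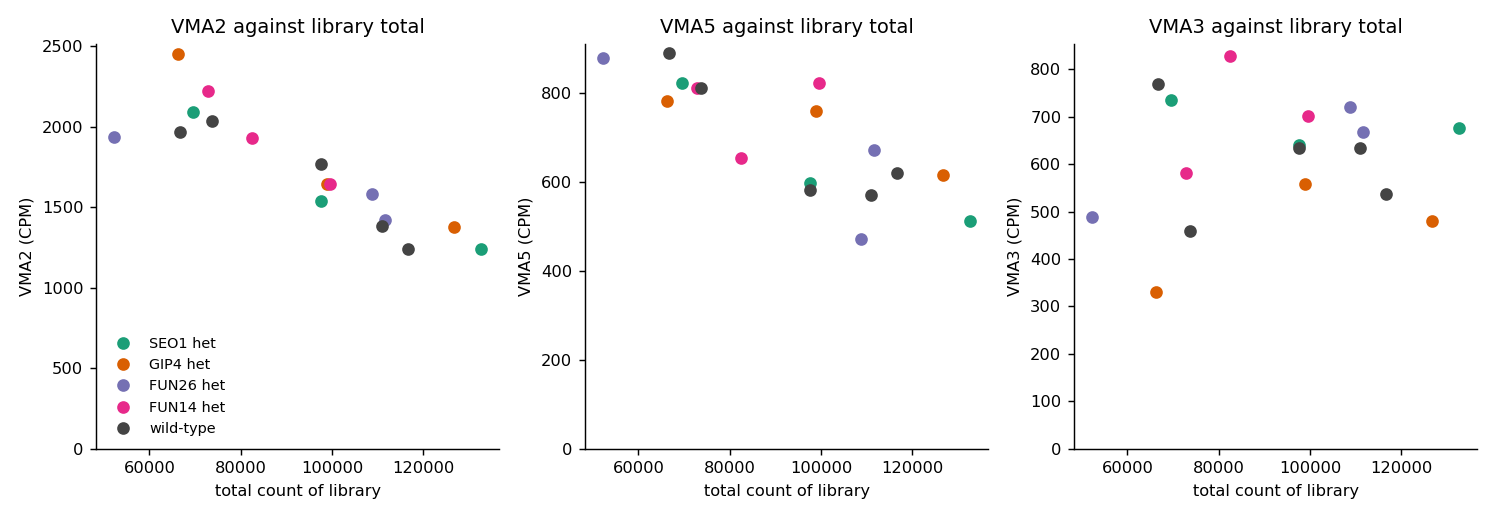
Levels of VMA2, VMA5 and VMA3 in CPM against the total count of the library, with 1 point per library coloured by strain. VMA2 and VMA5 decline with depth (r = -0.91 and -0.80 after subtraction of group means) and VMA3 does not (r = 0.40).

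The tested ORFs outside the complex that were most like the mean of the 10 members, by r over 17 libraries after subtraction of group means, were EDC2 (r = 0.89), HSP60 (0.89), EMC3 (0.89), DED1 (0.88) and NPL3 (0.88). Their own r with depth was -0.71, -0.85, -0.81, -0.58 and -0.73, beside -0.63 for the member mean, and the median likeness over the 2846 other ORFs was -0.08.

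The promoters of the members were searched for 5 short motifs, none of which contains another. In the 250 bases before the start codon, taken from R64 on both strands, CACGTG occurred before 0 of 10 members, beside 2.72% of 6020 promoters. TGACTC also occurred before 0 of 10, beside 6.23%, and CCAAT before 0 of 10, beside 35.4%. AGGGG, the core of the stress response element, occurred before VMA1, VMA4, VMA7 and VMA13, and in 18.7% of all promoters. GATAAG, the core read by GATA factors, occurred before VMA1, VMA2, VMA4 and VMA6, and in 12.5% of all promoters. Both of these motifs occurred before VMA1 and VMA4.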

How the data were processed

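RNA from 18 libraries of log-phase yeast was extracted with Trizol and columns, put through oligo-dT selection again after a first round and fragmented, per the labels' protocols. The deposited values, made by the authors, are estimated counts for 6606 ORFs in 1 table, over the last 200 bases of each per its name. Bowtie 0.12.5 is named in the submitters' processing notes. Genome build, annotation and use of strand: not given in the sources used here. Of the deposited values 93.0% were whole and 6.98% were odd multiples of 0.5. Symbols, windows and sequences came from RefSeq R64, which paired 5918 ORFs.

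The estimated counts, rounded to whole numbers, went into edgeR 4.0.16 (R 4.3.3): TMM factors, filterByExpr with a minimum count of 10, and 1 quasi-likelihood fit over the 5 groups with no covariate. DESeq2 1.42.0 was an alternative. Averaging wild-type replicates 1 and 2 followed a chi-square per ORF of 0.969, against 1.33 to 9.61 for other pairs of the same group. Runs that left out a library used 20000 permutations. The fit was tested on simulated data. Separate cultures for the replicates are not stated in the labels. The p-values therefore reflect library-to-library spread, which could be technical. The members and lists were chosen with earlier results of these data known. All members are named, as are the other listed V-ATPase subunits, PMA1 and 5 most alike ORFs. Other list genes are named only past an adjusted p of 0.05, except RAV1 and RAV2. The alternatives were other size factors, no count filter, DESeq2, wild-type replicates 1 and 2 kept apart, ceiling-corrected counts, a replicate block, wild-type replicates 1 to 3 only and each library left out. The runs with a block also kept wild-type replicates 1 and 2 apart. Whether shared replicate numbers pair the libraries is not stated in the labels. Deviations from group means were correlated between same-numbered libraries only, which cannot decide this without differently numbered libraries beside them. Same-numbered libraries all had r over 0.1 in 3 of 10 pairs of groups: GIP4 het and wild-type (0.242 to 0.381), FUN26 het and wild-type (0.173 to 0.433), and GIP4 het and FUN26 het (0.251 to 0.386). Permutations for correlations kept to groups and disregarded the number.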

Additional observations from a re-analysis of the deposited data

Results flagged for a closer look

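Within wild-type, 1 of the 16 V-ATPase genes examined had a library far from the other 4 by Dixon's criterion: VMA11, the c′ proteolipid, stood at 180 CPM in wild-type replicate 3, against 44.4 to 79.6 CPM in the other wild-type libraries. Chance flags about 1 in 20 such groups, so 1 of 16 is near what chance gives. The same library held the highest VMA6 level (1503 CPM) and the lowest VMA13 level (441 CPM). The value of 180 CPM rests on 11 counts, and its cause was not tested.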

How the results depend on the processing

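No member was called in any of the 10 comparisons under any of 25 alternative settings, which called up to 389 genes. Counts of genes over all tested ORFs moved more. Against wild-type they were 8 (no count filter), 7 (DESeq2), 8 (wild-type replicates 1 and 2 kept apart) and 15 (replicate block) for SEO1 het. They were 20 (block) and 2 (wild-type replicates 1 to 3 only) for GIP4 het, 22 and 2 for FUN26 het, and 48 (DESeq2), 23 (kept apart) and 148 (block) for FUN14 het. For the mean of the strains they were 22 (no filter) and 52 (block). Against the other heterozygotes they were 93 (block) for GIP4 het and 15 (DESeq2) and 2 (block) for FUN14 het, and the F test gave 2 under DESeq2 and under the block. The deviations of 30 same-numbered pairs of libraries had r from -0.484 to 0.511 with a median of 0.225, and 20 exceeded 0.1. Differently numbered libraries were not compared, so these values cannot show whether the numbers pair the libraries. The block moved no member across the threshold. With each library left out in turn, counts ran from 2 to 114 for SEO1 het, 4 to 11 for GIP4 het, 1 to 7 for FUN26 het and 2 to 175 for FUN14 het against wild-type, from 0 to 389 for GIP4 het and 0 to 5 for FUN14 het against the other heterozygotes, and from 0 to 217 for the F test. The highest came without SEO1 het replicate 1 (114, 389 and 217) and without wild-type replicate 3 (175 and 5, where 5 is for a contrast among heterozygotes). The members' median log2 fold change against wild-type was -0.037 (no filter) and -0.261 (wild-type 1 to 3) in GIP4 het, -0.076 (block) in FUN26 het, 0.017 (wild-type 1 to 3) in FUN14 het and -0.197 (wild-type 1 to 3) for the mean. Against the other heterozygotes it was 0.038 (no filter) in GIP4 het and, with ceiling-corrected counts, 0.113, -0.179 and 0.303 in SEO1 het, FUN26 het and FUN14 het. Leaving out a library gave medians from -0.133 to 0.077, -0.219 to 0.017, -0.177 to -0.105, 0.034 to 0.286 and -0.077 to 0.066 against wild-type, in the order used above. Against the other heterozygotes they ran from -0.062 to 0.086 in SEO1 het, -0.227 to 0.094 in GIP4 het and 0.135 to 0.299 in FUN14 het. For the mean minus wild-type, values near 0 changed sign: VMA3 at -0.142 (block) and -0.192, VMA5 at -0.059, VMA6 at -0.202 and VMA13 at 0.310 (all wild-type 1 to 3), VMA13 at 0.136 (block) and VMA10 at 0.019 (kept apart). With a library left out the members ran from -0.506 to -0.235 (VMA1), 0.006 to 0.142 (VMA2), -0.322 to -0.09 (VMA4), -0.198 to -0.041 (VMA7), -0.064 to 0.124 (VMA3), -0.047 to 0.127 (VMA5), -0.061 to 0.227 (VMA6), -0.238 to 0.009 (VMA8), -0.111 to 0.183 (VMA10) and -0.216 to 0.092 (VMA13). The causes were not tested. Depth limits VMA1 most, at 3 to 15 counts per library.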
